A study of Mus musculus with 2 samples.

Results

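The genes described here serve the lipid barrier of the epidermis and the synthesis of the fatty acids that feed it. They are 39 named genes, chosen by name from what is known of their enzymes and carriers, of 34820 gene names on the array. All 39 were measured, by 54 probes in all, and each gene is summarised by its brightest probe. The arrays compared epidermis of FVB/N mouse pups at postnatal day 4.5, after 12 h of doxycycline (Dox), which the methods give as intraperitoneal injection. Control pups carried K14-rtTA, a transgene that makes a Dox-dependent activator under the keratin 14 promoter, which is active in basal keratinocytes and follicle cells. SOX11-induced pups were littermates that carried K14-rtTA and also TRE-Sox11-FLAG, a transgene from which that activator drives FLAG-tagged SOX11. Thus Dox and rtTA were shared by both genotypes, and the tissue was whole separated epidermis, not sorted cells. There were 2 arrays, and each held 1 littermate pair, with control RNA in Cy3 (green) and SOX11-induced RNA in Cy5 (red). A colour swap is described in the methods, but by their labels both arrays had the same dye orientation, so dye and genotype effects on a probe cannot be told apart.

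The water barrier of skin lies in the outermost layer of the epidermis, where flattened dead cells sit in sheets of ceramides, cholesterol and free fatty acids. Differentiating keratinocytes make very long chain fatty acids, attach them to sphingoid bases to form ceramides, load the glucosylated ceramides into lamellar bodies, and after secretion oxidise and bind some of them to the protein envelope of the dead cell. Mutations in several of these genes, among them Abca12, Alox12b, Aloxe3, Pnpla1, Abhd5, Elovl4 and Slc27a4, disturb the barrier and cause inherited scaling disorders of the skin.

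Values are log2 ratios of SOX11-induced over control epidermis. A value of 0 means equal brightness, and a positive value means that the transcript was brighter in SOX11-induced epidermis. A gene passed where limma's moderated test gave a Benjamini-Hochberg adjusted p under 0.05 over all 55676 probes, and was called where the mean also exceeded 1.5 in size. Each error is an SD over the 2 pairs. The p-values rest on a moderated variance, which is drawn largely from all probes, so they need not follow the SD printed beside them. They cover no pups beyond these pairs. In whole epidermis, fewer cells of a type and less RNA per cell cannot be told apart.

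Between 37.5% and 42.6% of the 59305 spots were well above background in a channel, and none was saturated. The 2 Sox11 probes reached the background criterion in 0 channels. The transgene holds the reading frame of Sox11 per the methods, and where the probes lie in the transcript was not determined, so they give no check of the labels. Defining keratinocyte transcripts such as Krt5, Krt14, Krt1 and Krt10 were above background on both arrays. All 9 hair shaft keratins separated the pairs, with ratios of 1.42 to 2.46 in pair 1 and of -0.54 to -0.08 in pair 2.

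Most of the lipid genes had ratios close to 0, and 5 of the 39 passed. Scd2 and Sptlc3 rose, beside 3.52% of all genes and 6.93% of the genes above background that passed in that direction. Fa2h, Elovl6 and Pparg fell, beside 1.78% and 3.52%. These 5 are 12.8% of the members, beside 5.3% of all 34820 genes and 10.5% of the 16341 genes above background on both arrays. By limma no member was called at 1.5 (0.615% of all genes were), while 14 members (35.9%) had an unadjusted p under 0.05, beside 31.8% of the genes above background. The median over the members was 0.17 (0.11 in pair 1 and 0.17 in pair 2), beside 0.03 over the genes above background. The ratio was positive in both pairs for 23 members (59.0%, beside 40.2% of the genes above background). It was negative in both for 12 of the 39, beside 5582 of the 16341 genes above background. In 29 members (74.4%) the mean lay within 0.5 of 0, beside 80.2% of the genes above background.

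**Figure D1:**
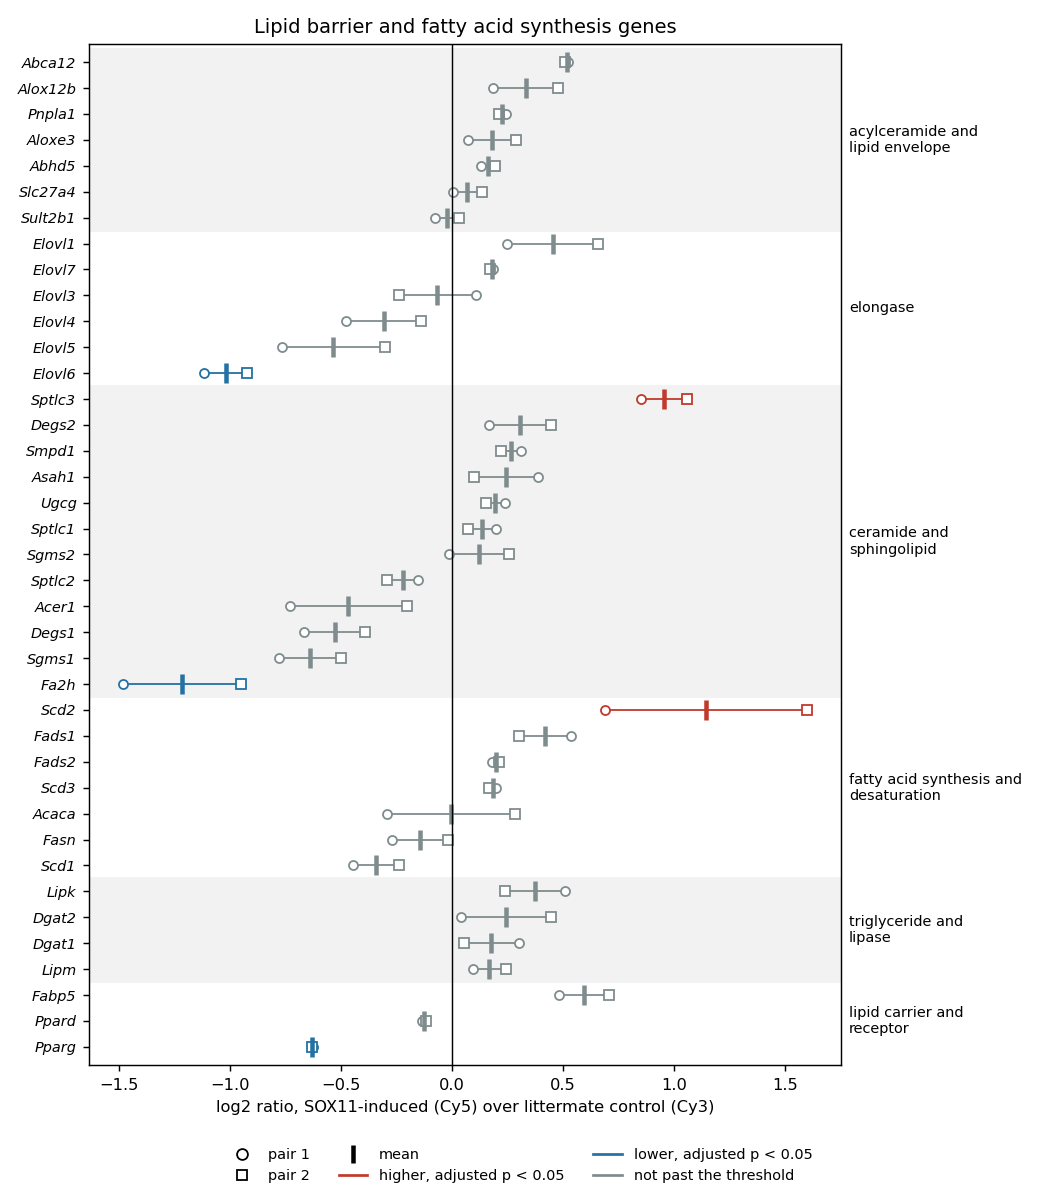
Log2 ratio (horizontal axis) of each of the 39 lipid genes (rows, grouped by role), with a circle for pair 1, a square for pair 2 and a bar for their mean, and red or blue for genes that passed. The 5 coloured genes lie at means of -1.21 to -0.63 and of 0.95 to 1.14, and most others lie within 0.5 of 0.

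The agreement of the pairs on these genes is given by gaps, SDs and a correlation. No member differed by more than 1 between the pairs, and the widest gap, 0.91, was that of Scd2. The share of all genes with a gap over 1 was not counted. The median SD was 0.16, which is wider than the 0.13 over the genes above background. The median half-width of the 95% interval from the moderated fit was 0.35. At this precision a mean under 0.35 in size has an interval that includes 0. Pearson's r between the pairs was 0.85 over the 39 members and 0.69 over the genes above background. These are correlations across genes within the same 2 arrays, and genes are not independent replicates.

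Scd2, a stearoyl-CoA desaturase that puts the first double bond into saturated fatty acids, had the highest ratio of the members. Its probe lies on chromosome 19 at 44381024-44381083 (mm9, as in the files; no annotation of that build was used, so the part of the transcript was not assigned, here and for the other probes). Its normalized log2 brightness was 12.62 in the control and 13.31 in the SOX11-induced pup of pair 1, and 10.73 and 12.33 in pair 2. Both SOX11-induced values were higher than the control of their own pair, but the control of pair 1 was brighter than the SOX11-induced pup of pair 2, so the groups overlapped. The ratios of 0.69 and 1.60 averaged 1.14 ± 0.64 (SD, n = 2), a 2.21-fold difference (limma adjusted p = 0.018).

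Sptlc3, a subunit of serine palmitoyltransferase, the enzyme of the first step of sphingolipid synthesis, also rose. Its brightness was 9.87 in the control and 10.72 in the SOX11-induced pup of pair 1, and 9.68 and 10.74 in pair 2. The SOX11-induced pups were both above the controls, without overlap. Since the genes that passed were picked on these same values, a lack of overlap adds no support, here and below. The ratios of 0.85 and 1.06 averaged 0.95 ± 0.15 (n = 2), a 1.94-fold difference (limma adjusted p = 0.0094), for the probe at 139451591-139451650 of chromosome 2. The other Sptlc3 probe was not well above background in either channel and had a mean of -0.09.

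Fa2h fell the most. It adds a hydroxyl group to the fatty acids of ceramides, and it is expressed in epidermis and sebaceous glands. The brightness was 11.60 in the control and 10.12 in the SOX11-induced pup of pair 1, and 11.25 and 10.30 in pair 2. Both SOX11-induced pups were below both controls. The mean ratio was -1.21 ± 0.37 (n = 2), from -1.48 and -0.95, which is 2.32-fold lower (limma adjusted p = 0.0050, probe on chromosome 8 at 113869096-113869155).

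Elovl6, the elongase that turns palmitate into stearate, fell as well. Its brightness was 12.85 in the control and 11.73 in the SOX11-induced pup of pair 1, and 12.43 and 11.51 in pair 2, again without overlap. With ratios of -1.11 and -0.92, the mean was -1.02 ± 0.14 (n = 2), which is 2.02-fold lower (limma adjusted p = 0.0066, chromosome 3 at 129341248-129341307). Elovl6 acts on the product of fatty acid synthase, and its own products are substrates of the Scd desaturases.

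Pparg, a nuclear receptor for fatty acid ligands that is required in fat cells and sebocytes, passed with the smallest difference. Its brightness was 9.12 in the control and 8.49 in the SOX11-induced pup of pair 1, and 9.02 and 8.39 in pair 2. The groups did not overlap, and the pairs were nearly equal at -0.63 each. The mean of -0.63 ± 0.0033 (n = 2) is 1.55-fold lower (limma adjusted p = 0.0488, chromosome 6 at 115440213-115440272). It did not pass with median spot brightness (adjusted p = 0.0792) or in the authors' table of log2 ratios (0.0801).

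**Figure D2:**
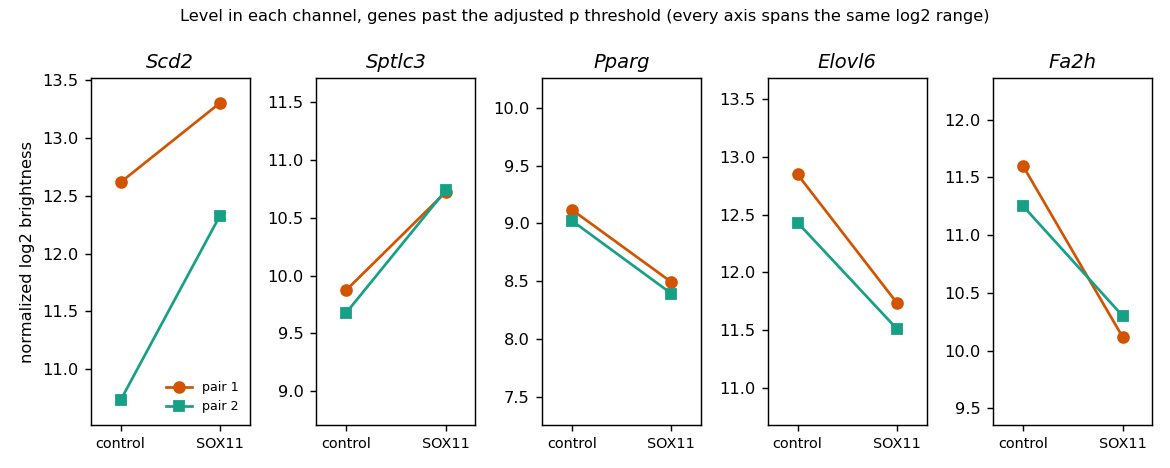
Normalized log2 brightness (vertical axes, each spanning the same range) of the 5 genes that passed, in the control and the SOX11-induced pup of each littermate pair, joined by lines. The lines rise for Scd2 and Sptlc3 and fall for Pparg, Elovl6 and Fa2h in both pairs, and only Scd2 has values that overlap between the groups. The 5 genes were picked on these same values, so their separation adds no support.

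The sequence before the start of Sptlc3 and of Elovl6 is shown because, of the 3 members past the threshold with a window in the RefSeq table used (GRCm38.p6, plus strand for both), these had the largest rise and the largest fall. Each line is the 250 bases directly before the annotated start, at chr2:139493663-139493912 for Sptlc3 and at chr3:129532136-129532385 for Elovl6. The capitals mark AACAATG, a core sequence bound by SOX proteins, which begins 182 bases before the Sptlc3 start.
Sptlc3: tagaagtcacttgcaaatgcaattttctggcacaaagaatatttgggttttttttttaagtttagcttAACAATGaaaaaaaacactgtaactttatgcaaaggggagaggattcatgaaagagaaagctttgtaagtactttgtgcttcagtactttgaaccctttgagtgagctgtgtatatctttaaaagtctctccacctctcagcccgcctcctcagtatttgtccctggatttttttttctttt
Elovl6: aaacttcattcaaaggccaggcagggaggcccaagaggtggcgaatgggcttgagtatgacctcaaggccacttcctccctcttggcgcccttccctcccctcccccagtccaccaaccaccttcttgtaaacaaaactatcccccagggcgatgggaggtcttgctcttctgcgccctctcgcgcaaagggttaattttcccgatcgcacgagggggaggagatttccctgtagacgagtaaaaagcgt
The Sptlc3 window is AT-rich, with 35.6% G and C, and that of Elovl6 has 56.4%. Of 5 motifs searched on both strands, none was present in the Elovl6 window or in those of Pparg, the other such member, which says only that these letters are not in them.

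Windows were available for 28 of the 39 members, which had 40 windows between them. The percentages below are shares of windows, and each gene named had the motif in 1 window. AACAATG was found for Sptlc3 only, and 3.29% of all 32851 windows hold it. The related AACAAAG was found for Lipm only (5.03% of all windows). The shorter AACAAT, which overlaps AACAATG, was found for Sptlc3 and Sgms2 (9.42% of all windows). CACGTG, an E-box that sterol-responsive and other helix-loop-helix factors bind, was found for Degs1, Elovl5 and Sgms2 (6.02% of all windows). The classical sterol response element, searched as an exact match, was found for none of the members and in 0.0731% of all windows. These matches are descriptions and not binding sites. No window was used for Aloxe3, Elovl3, Fa2h, Asah1, Scd1, Scd2, Fads1, Dgat1, Dgat2, Lipk and Fabp5.

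The 7 genes of acylceramide handling and the lipid envelope had small and mostly positive ratios, and none passed by limma (1 had an unadjusted p under 0.05). Their median was 0.18, and 6 of them were positive in both pairs. Abca12, the transporter that loads glucosylceramides into lamellar bodies, had the highest ratio, 0.52 in pair 1 and 0.51 in pair 2 (limma adjusted p = 0.0889). Next came Alox12b, the lipoxygenase that oxidises the linoleate of acylceramides, with 0.33 ± 0.21 (n = 2, adjusted p = 0.263) at its brightest probe. A dimmer Alox12b probe, on chromosome 11 at 68979536, gave 0.67 and 0.82 and passed by itself (mean 0.74, limma adjusted p = 0.0274). Both Alox12b probes were thus positive in both pairs, and the call depended on the probe. Aloxe3, which converts the product of Alox12b, had a mean of 0.18. Its probe lies 20.6 kb from the brightest Alox12b probe. Pnpla1, which makes acylceramide, had 0.23, and Abhd5, the cofactor of Pnpla1 and of triglyceride lipase, had 0.16 to 0.33 at its 3 probes. Slc27a4, a fatty acid transport protein, and Sult2b1, which makes cholesterol sulfate, lay at 0.07 and -0.02. Slc27a4 turned to -0.07 with median spot brightness, and Sult2b1 to 0.73 with median centring of the arrays.

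On the reported scale, markers of the keratinocyte layers differed in sign. The 5 basal markers were all negative in both pairs (median -0.41), and Col17a1, a collagen of the basal cell anchor, passed with -1.10. Among 7 suprabasal markers 6 were positive in both pairs (median 0.39), and none passed by limma (unadjusted p under 0.05 in 6). The log2 of the summed brightness was 17.59 to 17.78 in controls and 17.01 to 17.56 in SOX11-induced pups for the basal markers, and 18.71 to 19.00 and 19.29 to 19.36 for the suprabasal ones. No marker of either layer was below background. Values of these markers under the other processings are not given. With median centring the median of the genes above background was 0.52, so the signs of the markers could depend on the scaling. The part of these markers in the ratios of the lipid genes was not tested.

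The elongases extend fatty acids by adding carbon from malonyl-CoA, and the 6 family members ranged from -1.02 for Elovl6 to 0.45 for Elovl1. Their median was -0.19, 1 passed (Elovl6, lower), and 3 were negative in both pairs. Elovl5, which acts on polyunsaturated fatty acids, had -0.53 ± 0.33 (n = 2, limma adjusted p = 0.11), and Elovl4, which makes the longest acyl chains of acylceramides, had -0.31 and, at its other probe, -0.18. Elovl1, needed for the very long chains of ceramides, was positive in both pairs at 0.25 and 0.66 (adjusted p = 0.155), with 0.34 at its other probe. Elovl7 had 0.18, and Elovl3, an elongase known from sebaceous glands, had -0.07 with opposite signs in the pairs. With median centring Elovl3, Elovl4 and Elovl5 became positive, at 0.53, 0.48 and 0.06. Elovl6 kept its sign there at -0.34 but did not pass.

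The 12 genes of ceramide and sphingolipid metabolism split in direction. Their median was 0.13, with 6 positive and 5 negative in both pairs, and Sptlc3 and Fa2h passed in opposite directions. The other serine palmitoyltransferase subunits lay near 0, Sptlc1 at 0.14 and Sptlc2 at -0.22 with 0.09 at its other probe. The difference between Sptlc3 and these subunits was not tested. Degs1, the desaturase that turns dihydroceramide into ceramide, had -0.67 and -0.39 (mean -0.53, limma adjusted p = 0.094), whereas Degs2, which makes phytoceramide, had 0.17 and 0.45 (mean 0.31, adjusted p = 0.298). These desaturases were thus of opposite sign in both pairs, with neither past the threshold.

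Sgms1, a sphingomyelin synthase, came closest to the threshold among the genes that missed it, with -0.78 and -0.50 (mean -0.64, limma adjusted p = 0.0536) and -0.37 at its other probe. Sgms2, the other synthase, was not well above background on both arrays, and no fold is given. Of the ceramidases, which release fatty acids from ceramide, Acer1 had -0.47 ± 0.37 (n = 2, adjusted p = 0.164) and Asah1 had 0.24, with -0.05 at its other probe. Ugcg, which glucosylates ceramide, and Smpd1, the acid sphingomyelinase, were positive in both pairs with means of 0.20 and 0.27. With median centring Degs1, Sgms1, Acer1 and Sptlc2 turned positive, so their sign depended on the scaling. All of them stayed below the median of the genes above background, which was 0.52 with that setting.

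Among the 7 genes of fatty acid synthesis and desaturation, Scd2 was the member that passed (median of the 7, 0.18). Fasn, the fatty acid synthase, and Acaca, the acetyl-CoA carboxylase that makes its substrate, had means of -0.15 and -0.01. The pairs disagreed on Acaca, with -0.29 and 0.28, and its other probes had -0.36, -0.06 and 0.02, the last of which was dim. Fads1, a desaturase of polyunsaturated fatty acids, was positive in both pairs (0.54 and 0.30, limma adjusted p = 0.162), and Fads2 was not well above background.

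The Scd desaturases lie next to each other on chromosome 19, and Scd2 had the highest ratio of the cluster. Scd3 had 0.20 and 0.17 at its brightest probe, which lies 64.3 kb before the Scd2 probe. The other Scd3 probes had -0.06 and -0.05. Scd1, the main form in sebaceous glands and liver, had -0.45 and -0.24 (mean -0.34, limma adjusted p = 0.24). Between Scd2 and Scd1 lies Scd4, which is not among the members, at -0.02. Scd1 and Scd2 thus had opposite signs in both pairs, while Scd1 turned to 0.34 with median centring, where Scd2 was at 1.83. The difference between these paralogs was not tested, and near-identical stretches that probes of a family could share were not examined.

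The 4 triglyceride and lipase genes were positive in both pairs, with means of 0.17 to 0.37, and none passed by limma (unadjusted p under 0.05 in 1). Lipk and Lipm, acid lipases of the upper epidermis that lie in 1 cluster on chromosome 19, had 0.37 and 0.17. Dgat1 and Dgat2, which complete triglyceride synthesis, had 0.18 and 0.24. Of the carriers and receptors, Fabp5, the epidermal fatty acid binding protein, had 0.48 and 0.71 (mean 0.59, limma adjusted p = 0.0641). Ppard, the PPAR form most abundant in keratinocytes, had -0.13, and turned to 0.51 with median centring. Fabp5 was thus opposite in sign to the receptors on the reported scale.

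Most genes with several bright probes gave similar values. Of 9 such genes, 3 had probes of opposite sign (Asah1, Scd3 and Sptlc2), and none had probes more than 1 apart, the widest range being 0.41 for Alox12b. The Acaca probe with -0.06, which is among these bright probes, is listed on another chromosome than the rest of the gene. It was matched to Acaca by name alone.

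The list of other lipid genes, taken from the same pathways, had 99 names, of which 97 were measured (Alox15b and Cers1 were not). Of these, 9 passed (9.28%, beside 5.3% of all genes and 10.5% of the genes above background), with 2 higher and 7 lower, and the median of the 97 was -0.04. With median centring 47 were higher and 1, Ppara, was lower, and the other genes given below as lower lay at -0.34 to -0.02 without passing. The lower genes included receptors. Ppara, the nuclear receptor that drives fatty acid oxidation, had -2.01 and -1.71, a mean of -1.86 ± 0.22 (n = 2, limma adjusted p = 0.000327), and was the sole lipid gene of either list past 1.5. Its dimmer probes had -0.84 and -0.81. Rxrb, a partner of the PPAR receptors, fell as well (-0.78, adjusted p = 0.0232).

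The other lower genes were enzymes and a cofactor. Acacb, the mitochondrial acetyl-CoA carboxylase, had -1.37 and -0.55 (mean -0.96, limma adjusted p = 0.0297). Mgll, which cleaves monoglycerides, had -0.76, Agpat2, an acyltransferase of glycerolipid synthesis, -0.70, Lass5 (Cers5), a ceramide synthase, -0.73, and Psap, the precursor of the saposins that help degrade sphingolipids, -0.64. All of these were negative in both pairs, and a dim probe of Mgll had 0.17.

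Acer2 and Lpin1 rose. Acer2, a ceramidase of the Golgi, was not well above background in either control and was at least 1.56-fold higher in SOX11-induced epidermis (limma adjusted p = 0.0357), against a floor set per array by the dimmest signals well above background. Lpin1, a phosphatidate phosphatase, had 0.52 and 1.21 (adjusted p = 0.0344), and its control was above background on 1 array. The other Acer2 probe was not well above background in either channel and had a mean of 0.49. Thus on these arrays Acer2 was the alkaline ceramidase that passed, and it was positive. Acer1 and Acer3 (mean -0.36, limma adjusted p = 0.225) were negative in both pairs without passing.

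**Figure D3:**
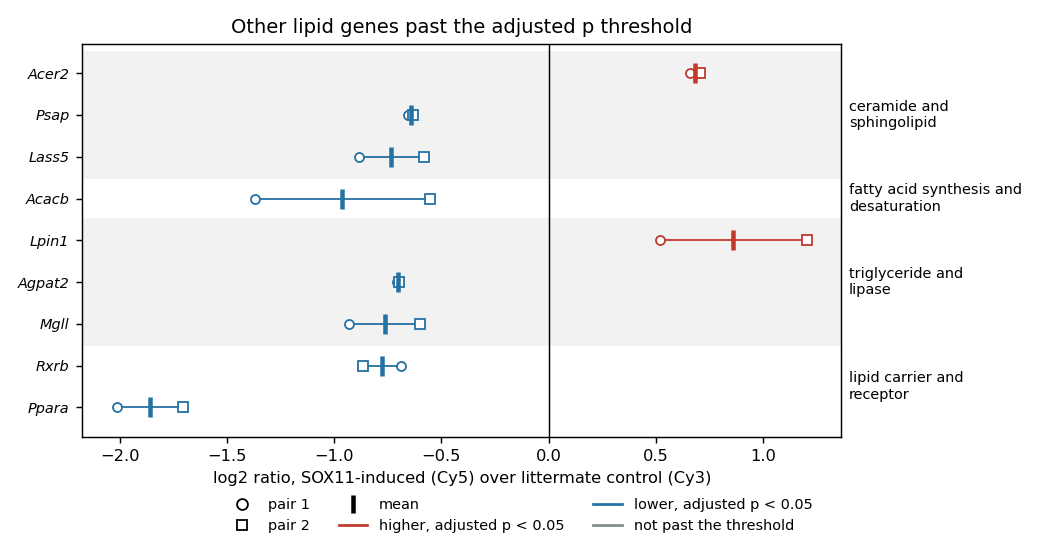
Log2 ratio (horizontal axis) of the 9 other lipid genes that passed, by role, with a circle for pair 1, a square for pair 2 and a bar for the mean. Acer2 and Lpin1 lie above 0 and the other 7 below it, with Ppara lowest at -1.86.

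The sebaceous gland shares several of these genes, and its markers were measured as a list. All 8 were above background and none passed by limma (unadjusted p under 0.05 in 2), with a median of -0.09. The defining wax synthases Awat1 and Awat2 had -0.09 and -0.13, Krt79, a keratin of the gland duct, 0.03. The lipid droplet proteins Cidea and Plin2 went opposite ways with -0.54 and 0.50, and these had the unadjusted p under 0.05. Mc5r, a melanocortin receptor of the gland, had 0.79 in pair 1 and -0.12 in pair 2. Of the 8 markers, 4 were negative in both pairs and 1 was positive in both. The log2 of their summed brightness was 17.05 to 17.17 in controls and 16.98 to 17.26 in SOX11-induced pups, ranges that overlap. Krt79 alone, at 16.92 and 16.80 in the controls, made up most of that sum, so it says little of the other markers. Of 7 adipocyte markers 3 were above background and none passed (unadjusted p under 0.05 in 0), and Adipoq, Plin1, Lep and Cidec were below background. The sums were 9.31 to 11.39 in controls and 10.57 to 11.07 in SOX11-induced pups, and Fabp4, a marker of this list, made up most of each. Their part in the falls of Fa2h and Pparg was not tested.

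Hair keratin brightness had opposite signs in the pairs. The log2 of the summed brightness of 9 hair keratins was 15.21 in the control and 17.47 in the SOX11-induced pup of pair 1, and 18.34 and 18.02 in pair 2. Scd2 was the member whose pairs were furthest apart, and its higher ratio was in pair 2, the pair in which the hair keratins had negative ratios. In each pair Fa2h, Elovl6 and Pparg were negative and Sptlc3 was positive. These genes were picked on the same ratios, so a like sign in both pairs adds no support. The relation of the lipid genes to hair content was not tested.

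**Figure D4:**
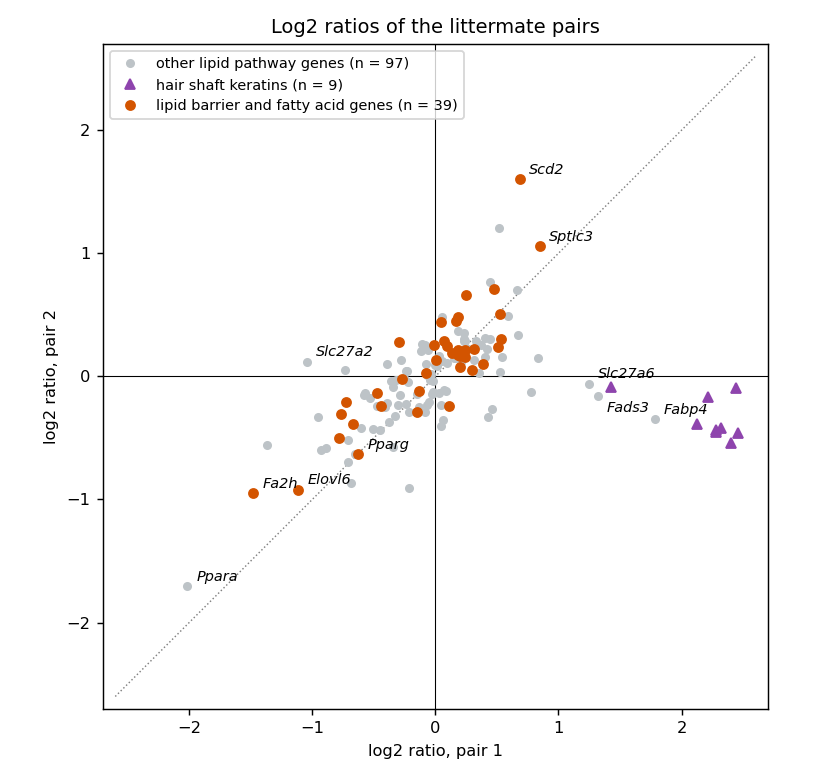
Log2 ratio in pair 1 (horizontal) against that in pair 2 (vertical) for the 39 lipid genes (orange), the 97 other lipid genes (grey) and 9 hair shaft keratins (purple triangles), with equality dotted. The lipid genes follow the line (r = 0.85 over 39 genes), whereas the hair keratins and Fabp4, Fads3 and Slc27a6 lie far to its right.

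The directions of the 5 genes that passed were the same in all 10 alternative processings, whereas the calls were not. Fitting bright probes only, changing the variance prior and averaging over bright probes left the ratios of these genes as they were. Those settings could change a call but not a direction. The authors' table was rebuilt from median spot signals, so it is nearly the same setting as median spot brightness. Sptlc3 passed in 8 of the 10, Fa2h in 7, Elovl6 and Scd2 in 6 each and Pparg in 4. With Agilent's processed signals, and with a variance prior that follows brightness together with a robust one, none of them passed. Over the alternatives the adjusted p ranged from 0.000115 to 0.256 for Sptlc3 and from 0.00853 to 0.743 for Pparg. Median centring in place of loess moved the median of the genes above background to 0.52, and relative to it Pparg lay at -0.60, Elovl6 at -0.86 and Fa2h at -1.10.

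**Figure D5:**
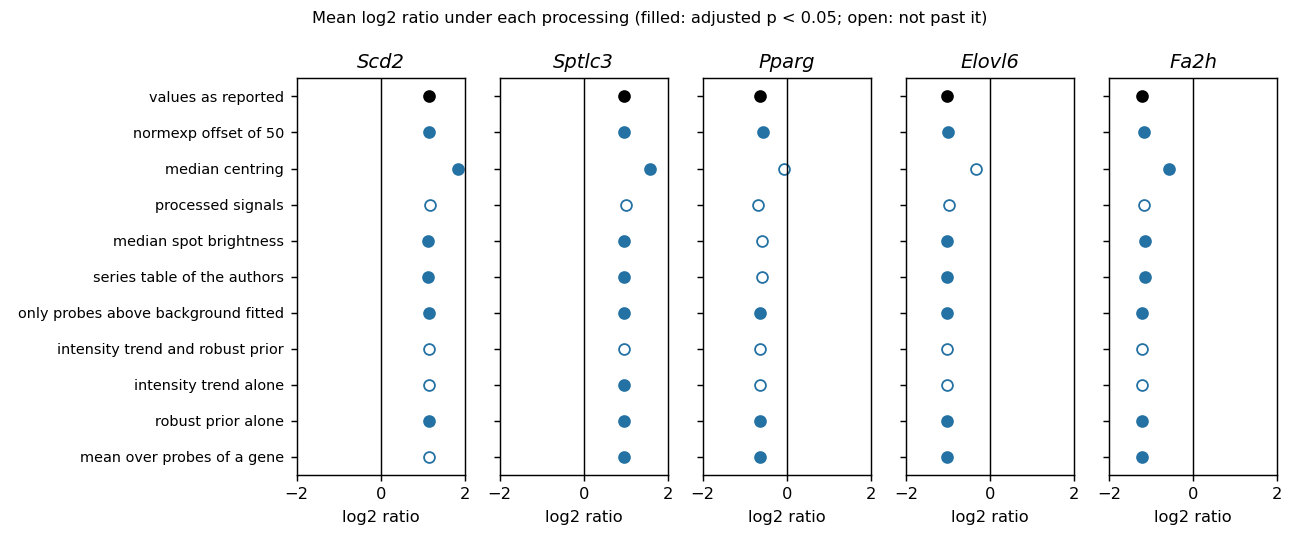
Mean log2 ratio (horizontal axes) of the 5 genes that passed under the reported processing (black) and 10 alternatives (blue), filled where the limma adjusted p was under 0.05 and open where it was not. No gene crosses 0, median centring shifts every point to the right, and Sptlc3 is filled in the most rows. Settings that refit the same ratios could not move a point.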

How the data were processed

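Total RNA of dorsal epidermis was amplified, labelled and hybridised to Agilent mouse expression arrays. The spot intensity values are those the authors deposited, read by Agilent Feature Extraction 10.7.3.1 per the file headers, which also hold log10 ratios that were not used. The authors deposited 1 table of loess-normalized log2 ratios too. It was rebuilt to within 0.000462 from the median spot signals, whereas the mean is used here, with the median and the table as alternatives. Probe positions are mm9 as deposited. Both arrays come from 1 slide and 1 scan.

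Mean spot signals were background corrected with normexp (offset 16) and loess normalized as in the study's methods, with control spots at weight 0, in limma 3.58.1 (R 4.3.3). The methods' ComBat step was not run, since both arrays have the same dye orientation. An intercept was fitted to the 2 ratios of each of 55676 probes, with Benjamini-Hochberg adjustment over all (prior degrees of freedom 8.34). Outlier-flagged spots (194 and 186) were dropped and spots of a probe averaged. A probe was above background where at least 0.5 of its spots were, in 1 channel or more on both arrays (21782 probes). An exact sign-flip test of 2 pairs cannot go below p = 0.5.

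Each gene was represented by the probe with the brightest mean of both channels, and other probes are given where they differ. Of the 54 member probes, 51 matched the RefSeq symbol by accession. The rest were matched by the array's own gene name, which is no check of them. Named are all members (in full where they passed), the other lipid genes that passed or whose pairs differ by more than 1, and defining markers. Scd4 and Acer3 are named beside their paralogs. The members, lists and tests were chosen with earlier results of these data known. Alternatives were another normexp offset, median centring, processed signals, median spot brightness, the authors' log2 table, bright probes only, other variance priors, averaging over probes and leaving out a pair. The number of arrays limits the precision.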

Additional observations from a re-analysis of the deposited data

How the results depend on the processing

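The 5 passing lipid genes became 9 with a normexp offset of 50, 27 (26 higher) with median centring, 0 with processed signals, 0 with an intensity trend and robust prior, and 1 (Sptlc3) with an intensity trend alone. Under the same settings the 9 other lipid genes that passed became 19, 48 (47 higher), 0, 0 and 0. An unadjusted p under 0.05 was found for 12 members with processed signals and for 14 with trend and robust prior, which need not be the members that had one before. At a log2 ratio of 1.5, 2 members were called with median centring (Scd2 1.83 and Sptlc3 1.57). The median of 0.17 moved to 0.75 with median centring, a shift shared with the genes above background (0.52), and to between 0.11 and 0.17 with 1 pair left out. With 1 pair no spread is left, so counts have no such value. The trend alone and the robust prior alone were chosen after seeing the data. Averaging over the bright probes of each gene, with the fit and adjustment over those genes alone, gave 5 passing genes, with Fabp5 in and Scd2 out. Both have 1 probe, so their ratios were unchanged and only the fit and adjustment differed.

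Median centring turned 12 members positive: Sult2b1 (0.73), Elovl3 (0.53), Elovl4 (0.48), Elovl5 (0.060), Sptlc2 (0.25), Degs1 (0.17), Sgms1 (0.0069), Acer1 (0.26), Fasn (0.30), Acaca (0.64), Scd1 (0.34) and Ppard (0.51). Processed signals turned Sult2b1 (0.15), Elovl3 (0.0077) and Acaca (0.11), and the offset of 50 turned Acaca (0.012). Median spot brightness turned Slc27a4 (-0.069) and Acaca (0.030), and the authors' table did the same (-0.067 and 0.027). Beside these 20 changes of sign, 368 tested values of single genes kept direction and side of the threshold, 61 no longer passed and 27 newly passed. Settings that refit the same ratios could not change a sign. Of 96 single-gene values with 1 pair left out, which have no test, 4 changed sign (Sult2b1 0.031, Elovl3 0.11, Sgms2 -0.014 and Acaca 0.28). The cause was not tested. Each array holds 1 littermate pair, so the reported fit of the ratios is itself the paired analysis. The smallest mean of a member that passed was 0.63 in size, and genes not well above background (Fads2, Sgms2) have no fold.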

Other observations

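Among the other lipid genes, 4 of 97 differed by more than 1 between the pairs, and none of the 39 members did. The share over all genes was not counted. Fabp4, a fatty acid binding protein of fat cells and capillaries, had 1.78 in pair 1 and -0.35 in pair 2. Fads3, a desaturase of sphingoid bases, had 1.32 and -0.16, and Slc27a6, a fatty acid transport protein, had 1.25 and -0.06. All of these had the signs of the hair shaft keratins in both pairs. Slc27a2, another fatty acid transport protein, had -1.04 and 0.12, the reverse. None of them passed by limma (adjusted p of 0.231 to 0.315).

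Markers of other skin cells were also measured. Col1a1, Col1a2 and Col3a1, collagens of dermal fibroblasts, had -0.17 to -0.03 in pair 1 and 0.77 to 1.14 in pair 2, while Dcn, a matrix proteoglycan of the same cells, passed with -0.79 (limma adjusted p = 0.026). Of 5 leukocyte, 4 melanocyte and 3 endothelial markers none passed by limma, with an unadjusted p under 0.05 in 1, 1 and 0 of them.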
